A study of Homo sapiens with 8 samples.

Results

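The liver supplies blood plasma with most of its carrier proteins and protease inhibitors, and 34 genes for such proteins were followed here in cells of HepG2, a line from a human liver tumour that still makes many of them. The 34 symbols were given as a list, drawn up with earlier results of these data known. A member was read from the probe set that carries its symbol alone, and 32 of the 34 had one among the 18404 genes with a value, so GC and ANG are not reported. The 8 samples were 4 untreated cultures, which received medium alone, and 4 cultures given 0.5 mM hydrogen peroxide (H2O2) for 60 minutes. The peroxide was used to bring on senescence, a lasting stop of cell division, and all 8 came from the same line in the same serum-containing medium. Per the labels, cells were washed after the exposure and kept for 5 days before the senescent phenotype was tested. HepG2 is a single tumour-derived line, which limits it as a model of hepatocytes. The design text calls the cultures biological replicates. Values are log2 levels, so a difference of 1 is a doubling, and every difference is H2O2 minus untreated with its standard error, n = 4 arrays per group.

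Carriers such as albumin, transferrin and transthyretin bind ions, hormones, vitamins or fatty acids and keep them soluble in plasma. Inhibitors such as the serpins and alpha-2-macroglobulin trap proteases, and the heavy chains of the inter-alpha-trypsin inhibitor family are attached to bikunin and passed on to hyaluronan in tissue matrix. In hepatocytes these genes are driven by liver-enriched factors of the HNF1, HNF4, FOXA and C/EBP families, and acute phase members also answer to interleukin 6 through STAT3. During an acute phase response haptoglobin, the orosomucoids and antichymotrypsin go up while albumin, transferrin, transthyretin and fetuin-A go down.

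The members went both ways, with more falls than rises. Among the 32, 13 were lower in H2O2 cells, 6 were higher and 13 did not pass, at an adjusted p under 0.05 (limma over all genes, Benjamini-Hochberg). Over all genes 14.8% were called lower, beside 40.6% of the members, and 19.2% were called higher, beside 18.8% of the members. The share of members that rose was thus close to that of all genes, though not to that of the brighter genes below. Only 6 of the 32 members read below the median over all genes in untreated cells, so all genes are an unlike background. With genes of 7.52 or less in both group means left out, 2980 of 9638 genes were higher and 2465 lower. Beside these, 5 of the members kept were higher and 13 lower, with 5 members left out. Among those kept, the share of rises was smaller for members than for genes, and the share of falls larger. HPX, 1 of the 5 rises, was kept only through its treated mean (6.98 untreated, 7.73 treated). Calls in either direction were a larger share of the genes kept than of all genes. The filter itself favours changed genes, since 1 group mean above the cut was enough, so that share is partly set by it. The median difference was -0.12 over the members and -0.022 over all genes tested. Groups did not overlap downward in 13 of the 32 members (40.6%), against 14.8% of all genes. Upward they did not overlap in 4 of the 32, a smaller share than the 18.9% of all genes. LEAP2, a secreted liver peptide, stood alone in size. The next largest fall was -0.95 for ITIH1 and the largest rise 0.74 for HPX. Of the 13 falls 8 were larger than 0.5, and of the 6 rises 2 were. Bulk arrays cannot tell fewer cells that make a transcript from less transcript per cell.

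**Figure D1:**
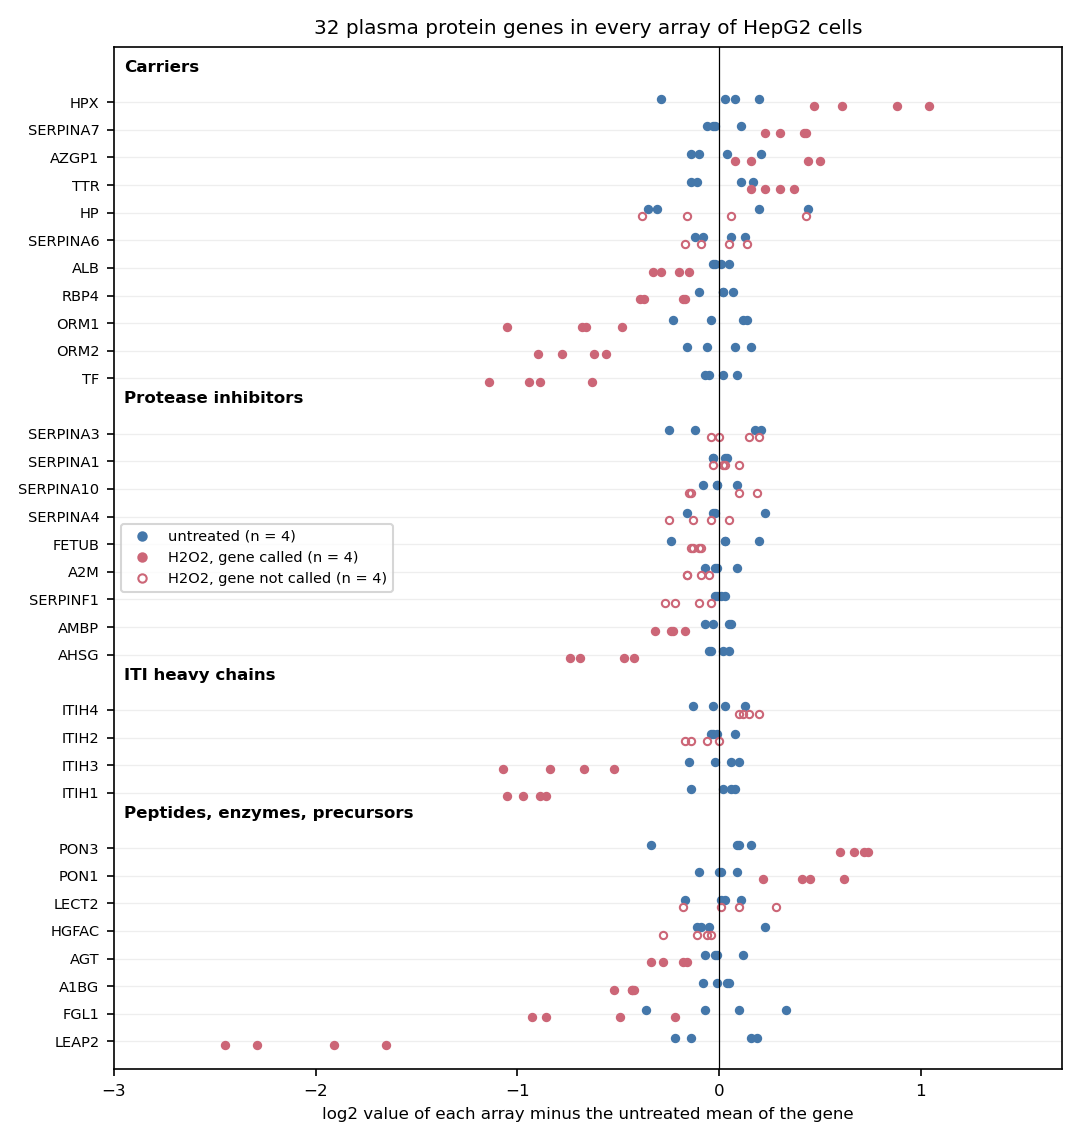
Each row is 1 gene, with its log2 value in each array minus the mean of the 4 untreated arrays (horizontal axis, log2 units), blue for untreated and red for H2O2, filled where limma called the gene. LEAP2 lies far to the left of all other members, and TF, ORM1, ORM2, AHSG, ITIH1 and ITIH3 lie wholly below their untreated arrays, while PON3 and HPX lie wholly above.

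Promoter sequence was not used to choose the list. RefSeq (GRCh38.p14) gave 33 start sites for 25 of the 32 members, and the 250 bases before each start were searched on both strands. The HNF1 core GTTAAT was found in 27.3% of these windows and in 6.23% of 35116 windows over all genes, and its longer form GTTAATNAT, which contains that core, in 9.09% and 0.723%. The C/EBP form TTGCNNAA was found in 24.2% of member windows and 9.05% of all windows. For the HNF4 forms CAAAGTCCA or TGAACTTTG the shares were 9.09% and 0.575%, for the FOXA forms TGTTTAC or TATTTAC 9.09% and 5.27%, for the STAT3 forms TTCNNNGAA or CTGGGAA 24.2% and 14.3%, and for TATAAA 21.2% and 10.7%. Windows of 1 gene can overlap, and a match is a string of letters and not a shown binding site. The HNF1 core stood before 9 members. Of these ALB and LEAP2 fell, SERPINA7 rose, and HGFAC, LECT2, SERPINA10, SERPINA6, SERPINA1 and SERPINA4 did not pass. The HNF4 forms stood before AHSG and LEAP2, which fell, and SERPINA7, which rose.

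Shown are 5 of these windows, 5′ to 3′ on the gene's strand and ending at the base before the start, because they hold matches to some of these forms beside different responses. LEAP2 (chr5:132873418-132873667, plus strand) had the largest fall, AHSG (chr3:186612810-186613059, plus) and ALB (chr4:73404037-73404286, plus) fell less, SERPINA4 (chr14:94561192-94561441, plus) did not pass and SERPINA7 (chrX:106038728-106038977, minus) rose. Capitals mark the matches to any of the forms above.

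LEAP2: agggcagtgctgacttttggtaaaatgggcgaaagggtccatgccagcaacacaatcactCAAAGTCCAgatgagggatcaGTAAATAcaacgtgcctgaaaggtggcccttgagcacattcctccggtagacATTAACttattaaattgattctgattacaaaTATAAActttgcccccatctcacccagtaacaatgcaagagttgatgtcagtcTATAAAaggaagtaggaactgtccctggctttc

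AHSG: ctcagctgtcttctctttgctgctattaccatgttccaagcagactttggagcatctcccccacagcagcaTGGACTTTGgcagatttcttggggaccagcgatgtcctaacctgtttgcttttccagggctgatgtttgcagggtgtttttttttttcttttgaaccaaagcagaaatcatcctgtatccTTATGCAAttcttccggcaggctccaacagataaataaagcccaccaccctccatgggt

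ALB: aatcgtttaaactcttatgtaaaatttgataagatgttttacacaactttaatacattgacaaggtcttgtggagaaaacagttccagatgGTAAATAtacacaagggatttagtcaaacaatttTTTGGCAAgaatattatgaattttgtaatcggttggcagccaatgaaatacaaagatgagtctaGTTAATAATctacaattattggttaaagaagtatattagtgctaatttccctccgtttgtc

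SERPINA4: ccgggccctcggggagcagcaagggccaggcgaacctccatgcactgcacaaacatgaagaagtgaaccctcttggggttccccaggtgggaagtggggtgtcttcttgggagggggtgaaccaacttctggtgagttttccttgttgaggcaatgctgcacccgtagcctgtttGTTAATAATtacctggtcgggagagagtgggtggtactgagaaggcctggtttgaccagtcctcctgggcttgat

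SERPINA7: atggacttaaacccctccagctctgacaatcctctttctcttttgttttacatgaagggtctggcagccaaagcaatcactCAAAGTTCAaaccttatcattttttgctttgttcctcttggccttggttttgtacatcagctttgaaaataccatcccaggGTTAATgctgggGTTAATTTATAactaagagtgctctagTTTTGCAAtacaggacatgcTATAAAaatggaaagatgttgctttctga

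The long HNF1 form began at -61 from the start of ALB and at -75 from that of SERPINA4. LEAP2 held the HNF1 core, an HNF4 form, a FOXA form and TATAAA within 1 window, and SERPINA7 held 2 HNF1 cores, an HNF4 form, a C/EBP form and TATAAA.

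Among the carriers 5 of 11 measured genes fell, 4 rose and 2 did not pass (median -0.015). These were 45.5% called lower and 36.4% called higher, beside 14.8% and 19.2% of all genes. The number that rose was 2 when untreated replicate 3, untreated replicate 4, H2O2 replicate 1 or H2O2 replicate 2 was left out. TF encodes transferrin, the iron carrier of plasma. It read 12.64, 12.55, 12.71 and 12.57 in the 4 untreated arrays, in the order of their replicate numbers, against 11.73, 11.99, 11.68 and 11.48 in the 4 treated ones. All treated arrays lay below all untreated ones, and the difference was -0.90 ± 0.094, or 1.86-fold lower (adjusted p = 5.71e-06). The iron receptors that take transferrin up were lower too, TFR2 by 0.91 ± 0.12 and TFRC by 0.35 ± 0.072 on the log2 scale. TFRC was chosen after its values were seen.

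Both orosomucoid genes, which encode the drug-binding alpha-1-acid glycoproteins, fell. ORM2 read 11.28, 11.36, 11.14 and 11.04 in untreated cells and 10.58, 10.64, 10.30 and 10.42 in treated cells. Its groups were fully apart, with a difference of -0.72 ± 0.092 (adjusted p = 3.21e-05). ORM1 gave -0.71 ± 0.12 (adjusted p = 0.000247). The 2 genes are near-identical copies, and probes may read both, so their values are not independent. The other carriers that fell did so by much less. RBP4, the retinol carrier, went from 12.29 ± 0.071 to 12.01 ± 0.12 (SD, n = 4; -0.28 ± 0.075, adjusted p = 0.0100). ALB, albumin, the main protein of plasma, went from 12.55 ± 0.034 to 12.31 ± 0.081 (SD, n = 4).

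HPX and HP scavenge what red cells release, hemopexin binding heme and haptoglobin binding haemoglobin, and only the first passed the test. HPX read 6.69, 7.06, 7.18 and 7.01 in untreated cells and 7.86, 8.02, 7.59 and 7.45 in treated cells. The 4 treated arrays all lay above the untreated ones (0.74 ± 0.13, adjusted p = 0.000371), at untreated levels below the median of 7.52 over all genes, which were not shown to lie above background. HP read 9.18, 9.22, 9.97 and 9.73 in untreated cells and 9.59, 9.96, 9.37 and 9.15 in treated cells. It had the widest spread of all members within a group, and its difference of -0.0095 had a 95% interval from -0.41 to 0.39. A neighbouring copy, HPR, resembles HP closely, so HP is uncertain in the same way as the orosomucoids. The log2 ratio of HP to HPX fell by 0.75 (exact two-sided permutation p = 0.0286, adjusted p = 0.0464 over 13 pairs).

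Of the hormone carriers, SERPINA7, thyroxine-binding globulin, rose. Its untreated arrays read 10.97, 10.98, 10.94 and 11.11 and its treated arrays 11.43, 11.42, 11.23 and 11.30, without overlap (0.34 ± 0.072, adjusted p = 0.00183). SERPINA6, which encodes the cortisol carrier transcortin, differed by -0.015 with a 95% interval from -0.20 to 0.17. TTR, transthyretin, carries thyroxine and holds RBP4 in plasma. It read 12.30, 12.24, 11.99 and 12.02 against 12.43, 12.50, 12.36 and 12.29, with overlapping groups (0.26 ± 0.084, adjusted p = 0.0267). That call was lost without untreated replicate 3 (0.21, adjusted p = 0.0721), untreated replicate 4 (0.22, adjusted p = 0.0852), H2O2 replicate 1 (0.25, adjusted p = 0.0676) or H2O2 replicate 2 (0.23, adjusted p = 0.0774).

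AZGP1, zinc-alpha-2-glycoprotein, also passed narrowly, from 10.07 ± 0.16 to 10.37 ± 0.21 (SD, n = 4; adjusted p = 0.0452), with overlapping groups. It was not called after median centring (0.29, adjusted p = 0.0527). The call was also lost without untreated replicate 2 (0.31, adjusted p = 0.0642), untreated replicate 3 (0.25, adjusted p = 0.121) or untreated replicate 4 (0.26, adjusted p = 0.123). The same held without H2O2 replicate 1 (0.23, adjusted p = 0.143) or H2O2 replicate 2 (0.24, adjusted p = 0.121).

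**Figure D2:**
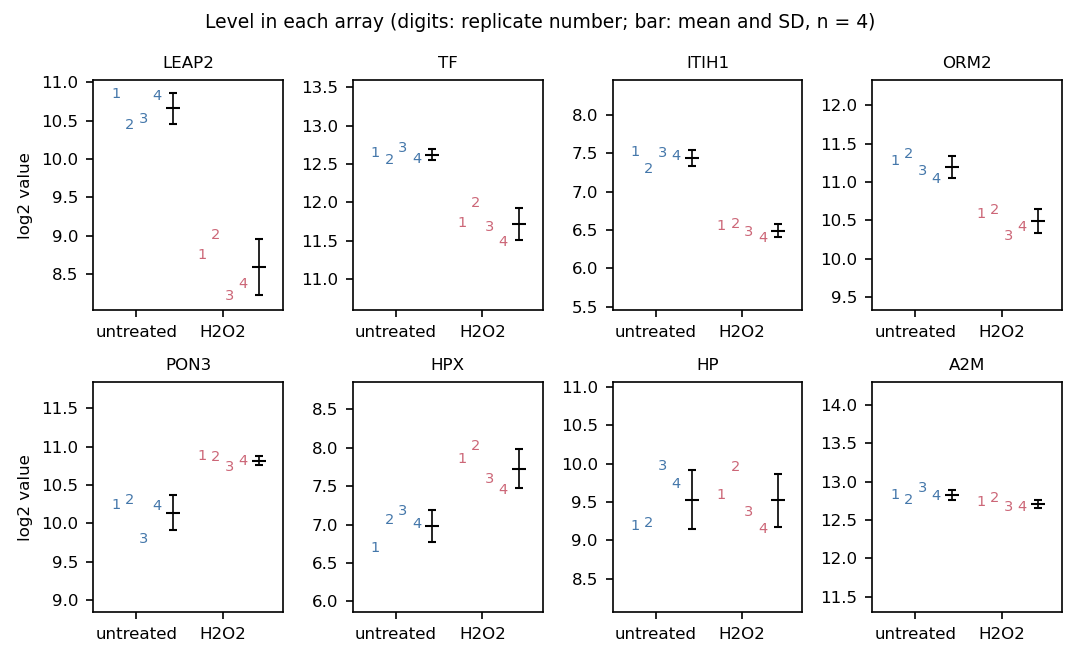
Log2 level (vertical axes, each spanning 3 log2 units) of 8 members in every array, with digits for the replicate number and a bar for the mean and SD of the 4 arrays. LEAP2, TF, ITIH1 and ORM2 are lower in H2O2 cells without overlap, PON3 and HPX higher without overlap, HP spreads widely in both groups, and A2M overlaps.

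Of the 9 protease inhibitors 2 fell, 0 rose (limma, and also 0 at an unadjusted p under 0.05) and 7 did not pass (median -0.12). The falls were 22.2% of this list, beside 14.8% of all genes, while 19.2% of all genes rose. AHSG, fetuin-A, a cystatin-type protein that keeps calcium phosphate in solution, read 12.66, 12.59, 12.69 and 12.60 in untreated cells and 12.17, 12.22, 11.95 and 11.90 in treated cells. Its groups were apart by more than their spread, at -0.58 ± 0.081 (adjusted p = 7.27e-05). AMBP, the precursor of bikunin and alpha-1-microglobulin, read 12.30, 12.22, 12.31 and 12.18 against 12.02, 12.08, 12.01 and 11.93. The difference was small but again without overlap (-0.24 ± 0.065, adjusted p = 0.00958). FETUB, fetuin-B, an inhibitor of astacin proteases, lay below the median over all genes and did not pass (-0.12 ± 0.086). The ratio of AHSG to FETUB fell by 0.46 (exact permutation p = 0.0286, adjusted p = 0.0464).

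The 4 inhibitory serpins among the members differed little between the groups, while some serpins outside the list changed, as given below. SERPINA1, alpha-1-antitrypsin, which blocks neutrophil elastase, read 11.02, 11.02, 11.09 and 11.08 in untreated cells and 11.08, 11.15, 11.02 and 11.07 in treated cells. The groups overlapped and the 95% interval of the difference ran from -0.11 to 0.16. SERPINA3, antichymotrypsin, gave 0.071 with an interval from -0.15 to 0.29. SERPINA4, kallistatin, gave -0.099 (-0.30 to 0.10), and SERPINA10, which inhibits factor X together with protein Z, 0.0015 (-0.18 to 0.18). All 4 intervals exclude a difference as large as that of TF or ITIH1. A2M, the protease trap alpha-2-macroglobulin, was near the top of the scale at 12.83 ± 0.065 and 12.71 ± 0.053 (SD, n = 4) and did not pass (-0.12, adjusted p = 0.205). It did with an intensity trend in the prior (adjusted p = 0.0444). SERPINF1, pigment epithelium-derived factor, a serpin that inhibits no protease, gave -0.16 (adjusted p = 0.0879) although its groups did not overlap. SERPINF1 passed with that prior (adjusted p = 0.0198) and when dim genes were left out (adjusted p = 0.0430).

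Many carriers and inhibitors read close to the top of the arrays. Among the 18404 genes the highest value in an untreated array was 13.19 to 13.26, and 8 members had an untreated mean within 1 log2 unit of this top, averaged over the 4 arrays. These were ALB, TF, AHSG, RBP4, AMBP, A2M, SERPINA3 and ITIH2, with A2M on average 0.40 below it. Whether this reduced their differences was not tested.

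The 4 inter-alpha-trypsin inhibitor heavy chains did not move as one. ITIH1 read 7.52, 7.30, 7.50 and 7.46 in untreated cells and 6.55, 6.58, 6.47 and 6.39 in treated cells (-0.95 ± 0.073, adjusted p = 3.17e-07). Those levels lay below the median over all genes and were not shown to lie above background. ITIH3 read 10.86, 10.61, 10.82 and 10.74 against 10.09, 10.24, 9.92 and 9.69. Its fall, -0.77 ± 0.11, was also without overlap (adjusted p = 6.10e-05). ITIH2, which joins ITIH1 on bikunin in the circulating inhibitor, read 12.69, 12.67, 12.78 and 12.66 against 12.64, 12.70, 12.53 and 12.56. Its groups overlapped and it did not pass (-0.092, adjusted p = 0.333). ITIH4, an acute phase relative that is not attached to bikunin, gave 0.14 ± 0.071 (adjusted p = 0.150), and passed without untreated replicate 3 (0.19, adjusted p = 0.0482) and with array weights (0.20, adjusted p = 0.0178). ITIH4 too read below the median over all genes, at 6.97 in untreated and 7.11 in treated cells.

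The ratios between heavy chains tested this unequal change on each array. The log2 ratio of ITIH1 to ITIH2 fell by 0.86, that of ITIH1 to ITIH4 by 1.09 and that of ITIH3 to ITIH4 by 0.91. For each of them p was 0.0286 in the exact permutation test, the smallest that 4 against 4 arrays can give, and adjusted p = 0.0464 over the 13 pairs. Each of these ratios holds ITIH1 or ITIH4, which read below the median over all genes and were not shown to lie above background. The ratio of ITIH1 to ITIH3 did not pass (-0.18 ± 0.078, exact permutation p = 0.114, adjusted p = 0.149). The ratio of AMBP to its partner ITIH2 fell slightly, from -0.39, -0.44, -0.47 and -0.48 to -0.62, -0.62, -0.53 and -0.63. That shift of -0.15 was without overlap (exact permutation p = 0.0286, adjusted p = 0.0464).

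In all, 8 of 13 tested pairs passed, and ALB/GC was not tested because GC had no value. All 8 sat at the smallest p the exact permutation test can give, 0.0286. Their adjusted p of 0.0464 thus rested on how many pairs reached that p, and would be larger with fewer. ITIH1, ITIH2 and ITIH4 each recur among the pairs that passed, so these passes are not independent. Pairs of other genes were not tested, so how often such pairs would pass is not known. TTR and RBP4, which circulate as a complex, moved in opposite directions. Their log2 ratio was -0.02, -0.13, -0.20 and -0.29 in untreated cells and 0.32, 0.38, 0.44 and 0.39 in treated cells, a shift of 0.54 without overlap (exact permutation p = 0.0286, adjusted p = 0.0464). The ratio of SERPINA6 to SERPINA7 fell by 0.36 at the same p. The pairs ORM1/ORM2 (0.01 ± 0.088), SERPINA1/SERPINA3 (-0.04 ± 0.10), SERPINA4/SERPINA10 (-0.10 ± 0.11) and PON1/PON3 (-0.25 ± 0.14) did not pass. A ratio shows that 2 genes changed unequally, not which of them did, and probes of different genes may respond unequally.

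**Figure D3:**
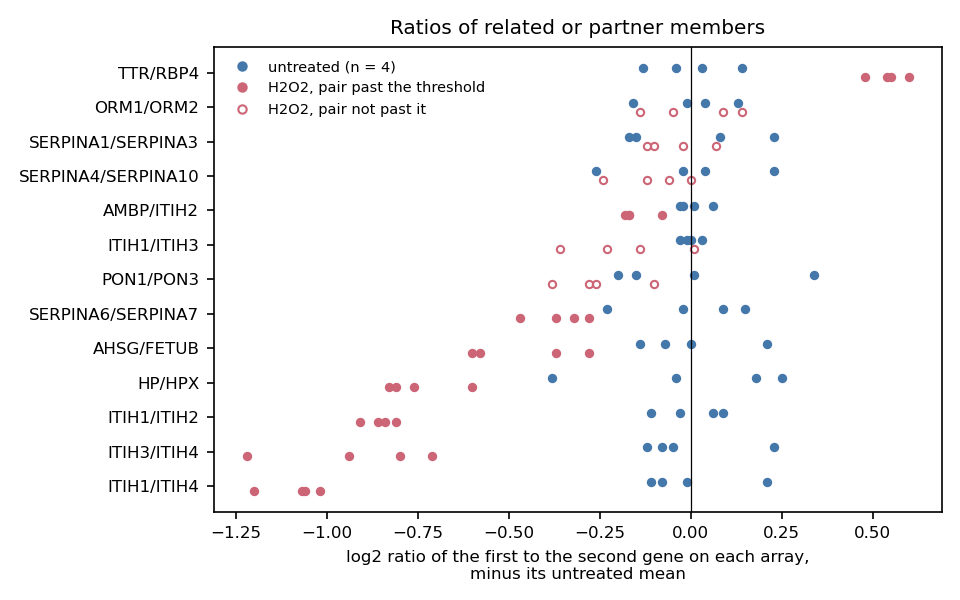
Log2 ratio of the first to the second gene of each pair on every array, minus its untreated mean (horizontal axis, log2 units), with 4 untreated arrays in blue and 4 H2O2 arrays in red, filled where the pair passed. TTR/RBP4 is the 1 pair that passed upward, by 0.54. ITIH1/ITIH4 shifted most, by -1.09, with both genes below the median over all genes.

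Among secreted peptides, enzymes and precursors 4 of 8 measured genes fell, 2 rose and 2 did not pass. These were 50.0% called lower and 25.0% called higher, beside 14.8% and 19.2% of all genes. LEAP2 encodes a peptide that blocks the ghrelin receptor. It read 10.85, 10.44, 10.52 and 10.82 in untreated cells and 8.75, 9.01, 8.21 and 8.37 in treated cells. Every treated array lay more than 1 log2 unit below every untreated array, and the fall was 4.20-fold (-2.07 ± 0.15, adjusted p = 2.00e-07). It ranked 7 from the bottom among 18404 genes. The receptor gene GHSR read below the median over all genes and did not pass (adjusted p = 0.378), a value given after it was seen.

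FGL1, a liver-derived relative of fibrinogen that binds LAG3, read 9.53, 9.24, 9.93 and 9.70 against 9.11, 9.38, 8.67 and 8.74. The groups overlapped, since H2O2 replicate 2 lay above untreated replicate 2, yet the difference passed (-0.62 ± 0.16, adjusted p = 0.00761). A1BG, a plasma glycoprotein of the immunoglobulin superfamily, read 8.65, 8.52, 8.64 and 8.59 against 8.17, 8.18, 8.17 and 8.08 (-0.45 ± 0.064, adjusted p = 7.94e-05). The groups were narrow and apart. AGT, the precursor of angiotensin, went from 11.82 ± 0.079 to 11.58 ± 0.085 (SD, n = 4; adjusted p = 0.0157), a call lost without H2O2 replicate 4 (-0.21, adjusted p = 0.0597). The angiotensin receptor gene AGTR1 fell by 1.03 ± 0.080.

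Both paraoxonases, lactonases carried on high-density lipoprotein, rose. PON3 read 10.24, 10.30, 9.80 and 10.23 in untreated cells and 10.88, 10.86, 10.74 and 10.81 in treated cells, without overlap (0.68 ± 0.099, adjusted p = 0.000101). PON1 rose from 5.46 ± 0.079 to 5.89 ± 0.16 (SD, n = 4; 0.43 ± 0.085, adjusted p = 0.00130), at levels far below the median over all genes and not shown to lie above background. HGFAC, the protease that activates hepatocyte growth factor, and LECT2, a chemotactic liver protein, did not pass (-0.12 and 0.055). LECT2 read only 5.23 ± 0.12 in untreated cells (SD, n = 4).

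**Figure D4:**
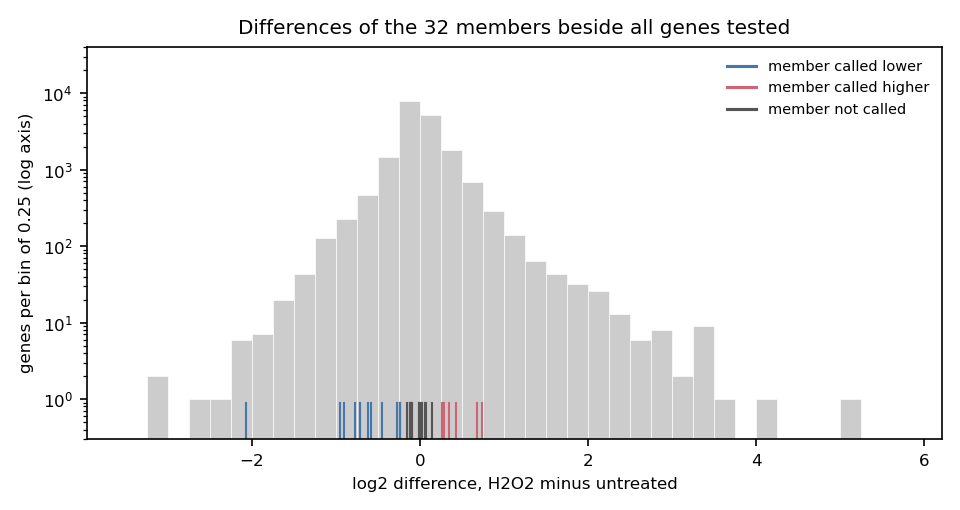
Grey bars count all 18404 genes by log2 difference (horizontal axis, bins of 0.25, log vertical axis), and ticks at the base mark the 32 members by call. Apart from LEAP2 at -2.07, the members lie between -0.95 and 0.74.

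Several members sit beside relatives on a chromosome, and neighbours did not share 1 response in every group. The 3 paraoxonase genes lie next to each other and all rose, PON2, the intracellular one, by 0.72 ± 0.061. In the serpin cluster on chromosome 14, in the order SERPINA10, SERPINA6, SERPINA1, SERPINA11, SERPINA9, SERPINA12, SERPINA4, SERPINA5 and SERPINA3, the 5 members did not pass. Of the 4 others SERPINA11 fell by 0.59 ± 0.086 and SERPINA12 by 0.65 ± 0.073, while SERPINA9 (-0.18) and SERPINA5 (0.094) did not pass. SERPINA12 read 6.32 in untreated and 5.68 in treated cells, below the median over all genes. ITIH1, ITIH3 and ITIH4 are neighbours, of which the first 2 fell. Beside AHSG and FETUB, HRG rose by 0.44 ± 0.078 from a level of 4.87 and KNG1, kininogen, fell by 0.85 ± 0.10. KNG1 read 7.41 in untreated and 6.56 in treated cells, so both it and HRG lay below the median over all genes. Next to ALB, AFP, alpha-fetoprotein, fell by 0.56 ± 0.077, and AFM, afamin, did not pass (0.18 ± 0.084, adjusted p = 0.122). Whether the neighbours differ from one another was not tested outside the pairs given above.

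**Figure D5:**
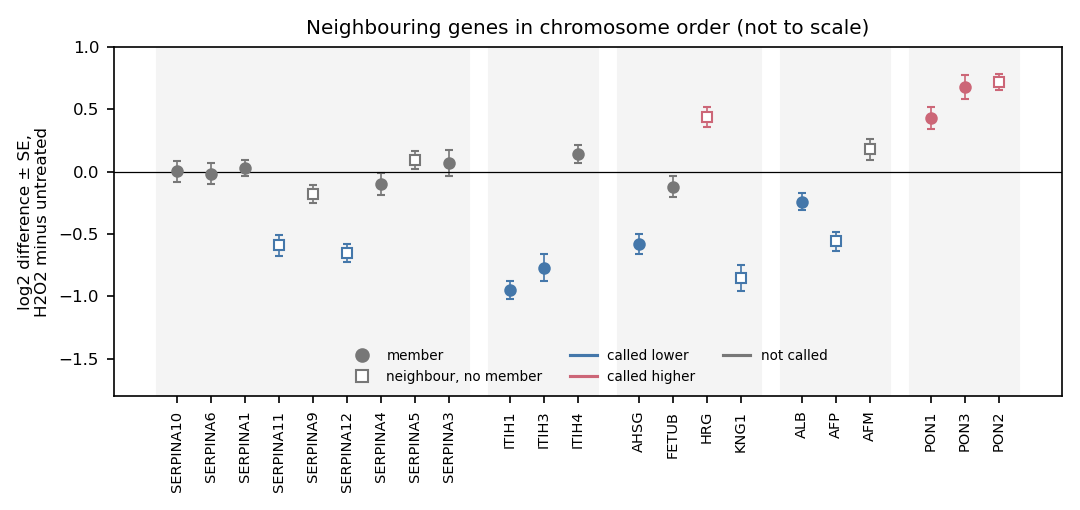
Log2 difference ± SE (vertical axis, H2O2 minus untreated, n = 4 arrays per group) of neighbouring genes in chromosome order, circles for members and open squares for other genes, coloured by call. The 3 PON genes lie above 0, the 5 SERPINA members lie near 0, and ITIH1 and ITIH3 lie below their neighbour ITIH4.

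By acute phase class, falls outnumbered rises in both kinds of member. Over all genes 14.8% were called lower and 19.2% higher. Of 5 members known to go down in an acute phase response, 4 fell (TF, AHSG, RBP4 and ALB) and TTR rose (median -0.28). Of 10 counted here as going up, 5 fell (ORM1, ORM2, ITIH3, FGL1 and AGT), HPX rose and 4 did not pass (median -0.13). Of 16 other acute phase and complement genes with a value, 5 fell (31.2%) and 2 rose (12.5%), with a median of -0.050. CP, the copper ferroxidase ceruloplasmin, fell by 1.60 ± 0.14 and FGB, the fibrinogen beta chain, by 0.71 ± 0.14. LBP, which binds bacterial lipopolysaccharide, rose by 0.78 ± 0.078 and MBL2, mannose-binding lectin, by 0.50 ± 0.11. LBP read 5.79 in untreated and 6.57 in treated cells, below the median over all genes, and was not shown to lie above background. With dim genes left out, 1 gene of this list rose. CRP read 4.83 to 5.03 in untreated cells and 4.65 to 5.04 in treated cells, and its groups overlapped.

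Genes that regulate the members changed in both directions. Of 16 measured liver transcription factors 8 fell and 2 rose (median -0.22). These were 50.0% called lower and 12.5% called higher, beside 14.8% and 19.2% of all genes. HNF4G, an HNF4 relative, fell by 1.23 ± 0.0995 and CEBPD, the C/EBP delta factor of the acute phase, by 0.56 ± 0.075, while NR5A2 rose by 0.50 ± 0.11 and ATF5 by 0.34 ± 0.072. NR5A2 read 6.35 in untreated and 6.85 in treated cells, below the median over all genes. With dim genes left out, 1 gene of this list rose. CEBPA fell by 0.45 ± 0.077, whereas CEBPB (-0.17, adjusted p = 0.0631) and FOXA1 (-0.037) did not pass, all 3 chosen after their values were seen. Of 20 genes of interleukin 6 and glucocorticoid signalling 8 rose and 4 fell (median 0.099). The count of rises was 5 without untreated replicate 1, untreated replicate 2 or H2O2 replicate 4. JAK2, a kinase of cytokine receptors, rose by 1.11 ± 0.081 and PIAS3, an inhibitor of STAT3, by 0.87 ± 0.073. The receptor chains IL1RAP and LIFR fell by 1.14 ± 0.11 and 0.87 ± 0.078.

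Other lists tied to the members gave these counts. Over all genes 19.2% were called higher and 14.8% lower. The shares of relatives that rose and of secretory genes that fell were near these. Among 38 measured family relatives, 1 of which (FETUB) is also a member, 8 rose (21.1%) and 11 fell (28.9%), with a median of -0.094. The serpins SERPINE2, protease nexin 1, and SERPINB8, an intracellular inhibitor, rose by 2.52 ± 0.10 and 2.17 ± 0.084. APOM, a lipocalin like RBP4, fell by 1.07 ± 0.13, and KNG1 was the next largest fall. Among 25 receptors and partners, RBP4 itself included, 2 rose and 6 fell (median -0.075; 4 rose after quantile normalization), with PLXNB2 at 0.71 ± 0.088 and MET, the receptor of hepatocyte growth factor, at 0.43 ± 0.072. Of 34 secretory pathway genes 6 fell (17.6%) and 1 rose (2.94%), with a median of -0.072. SEC11C, of the signal peptidase, fell by 0.54 ± 0.11 and LMAN1, a cargo receptor for secreted glycoproteins, by 0.45 ± 0.073. The 1 rise, its cofactor MCFD2 (0.18 ± 0.063), was lost in 7 of 16 other settings.

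The label of a hepatocyte-derived line was checked against markers. All 10 hepatocyte markers had untreated means of 11.22 to 12.91, and their mean level was 12.17 to 12.22 in untreated arrays and 11.80 to 12.06 in treated arrays. Of the 10 markers 6 were called lower (60.0%, beside 14.8% of all genes) and 1 higher (10.0%, beside 19.2%). ALB, AHSG and TTR among them are also members, so this check partly repeats the members' own values. Of other cell types, 6 of 6 endothelial, 5 of 6 macrophage and leukocyte and 5 of 8 stellate cell markers had a mean below the median over all genes, with PTPRC at 4.23, DCN at 4.30 and CD163 at 5.05. The mean marker level overlapped between untreated and treated arrays in each of these 3 lists, with 6.20 to 6.33 and 6.19 to 6.37 for the endothelial list, 6.37 to 6.44 and 6.41 to 6.63 for the leukocyte list, and 6.71 to 6.77 and 6.68 to 6.92 for the stellate list. Among biliary markers KRT19 rose by 1.81 ± 0.070, while KRT7, SOX9 and EPCAM did not pass, and the mean of the list was 9.51 to 9.61 in untreated arrays and 10.00 to 10.01 in treated arrays. Single markers of other cell types also changed. In the stellate list ACTA2, smooth muscle actin, rose by 1.50 ± 0.072, COL1A1, a collagen chain, rose by 0.41 ± 0.076 and PDGFRB, a growth factor receptor, fell by 1.15 ± 0.088. In the leukocyte list CD68, a lysosomal protein of macrophages, rose by 0.80 ± 0.071 from an untreated mean of 9.56, and CD14, a lipopolysaccharide co-receptor, rose by 0.27 ± 0.064. In the endothelial list CDH5, a cadherin, fell by 0.25 ± 0.073. The part of these markers in the members' differences was not tested.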

How the data were processed

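Total RNA of 8 HepG2 cultures was hybridised to single-channel whole-transcript arrays after biotin labelling, per the labels' protocols. The deposited table holds log2 values for 32321 probe sets, as the values show, with array medians of 6.85 to 6.93. The sources used here do not give how the authors summarised and normalised the probes, and the submitters' processing notes name limma without a role. Of the probe sets 19158 carry 1 symbol in the platform annotation, 1388 several and 11775 none. Where a gene had more than 1, that of highest mean over the arrays was used, with no filter. RefSeq (GRCh38.p14) changed 0 symbols and gave gene order and promoters.

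Groups were compared with limma 3.58.1 in R 4.3.3 (1 mean per group, empirical Bayes, Benjamini-Hochberg over 18404 genes), and pairs with exact permutation tests (scipy 1.17.1, 70 splits, two-sided). The script was tested on simulated data. Across all probe sets Pearson's r was 0.990 to 0.996 within groups and 0.979 to 0.985 between them, and arrays shared at most 0.00619% identical values. The number of arrays limits the precision.

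The members and lists were chosen with earlier results of these data known. All members with a value are named, and of each list up to 2 called rises and 2 called falls, together with chromosome neighbours. Alternatives were a replicate block, quantile normalization, median centring, leaving out dim genes, averaging probe sets, adding probe sets with several symbols, an intensity trend with a robust prior, array weights, and leaving out each array. No detection call or scanner output was used.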

Additional observations from a re-analysis of the deposited data

Results flagged for a closer look

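Within each group of 4 arrays the distance of the highest or lowest array from the rest was compared with Dixon's 95% limit, over 64 groups of the 32 members. Chance flags about 5% of such groups, and 2 stood out. PON3 read 9.80 in untreated replicate 3, while the other untreated arrays read 10.23 to 10.30. A1BG read 8.08 in H2O2 replicate 4, while the other treated arrays lay at 8.17 to 8.18. Both genes kept their calls without those arrays.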

How the results depend on the processing

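The count of members called lower was 13 in all but 2 of the 16 alternatives, 15 with the intensity trend and robust prior and 12 without H2O2 replicate 4. The count called higher ranged from 4 to 7. The calls of 26 members never changed, and those of TTR, AZGP1, AGT, ITIH4, A2M and SERPINF1 did, with the values given beside them. The cause was not tested. Leaving out dim genes removed 5 members, ITIH1 and PON1 among them. Over all genes, array weights raised the number called lower from 2732 to 4111. The replicate number as a block left 13 members lower and 6 higher and gave 2470 lower and 3288 higher genes. Same-numbered arrays of the 2 groups had deviations from their group means that correlated over 18404 genes at -0.068, 0.060, -0.25 and 0.094, and not every array correlated best with its own number, so the numbers were not taken to pair the samples. In this block no member changed its call. The same 8 pairs passed in quantile-normalized, median-centred and probe-set-averaged values; leaving out an array leaves too few splits to reach the threshold, so only values were compared there. Levels near the top of the arrays or below the median over all genes limit how exactly a fold is known.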

Other observations

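Treated replicates differed from one another across the members. In 26 of 32 members (81.2%) H2O2 replicates 1 and 2 both lay above H2O2 replicates 3 and 4, an order found in 26.1% of all genes. The opposite order was found in 1 member, LECT2, and in 23.8% of all genes. ORM1, FETUB, A1BG, HGFAC and ITIH4 showed neither order. In untreated cells replicates 1 and 2 lay above 3 and 4 in 8 members (25.0%, beside 24.8% of all genes), and 3 and 4 above 1 and 2 in 8 members (25.0%, beside 15.5%). This split of the arrays was noticed in the data, is not a group of the study and was not tested.

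The untreated arrays that read high were not the same for all members. HP, SERPINA1, SERPINA3, SERPINA4, AGT and FGL1 were higher in untreated replicates 3 and 4 than in 1 and 2, and higher in H2O2 replicates 1 and 2 than in 3 and 4, a pattern of 6 members (18.8%) and 3.12% of all genes. ALB, TTR, RBP4, ORM1, ORM2, SERPINA6, PON3 and AZGP1 were higher in untreated replicates 1 and 2. HP, FGL1 and SERPINA3 thus varied between replicates of a group by about as much as, or more than, between groups, with HP running from 9.18 to 9.97 in untreated cells. The median SD within groups was 0.129 over members and 0.112 over all genes, and 5 members had one above 0.2.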
